A study of Homo sapiens with 16 samples.

Results

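The comparison described here asked what the kinase inhibitor H89 did to gene expression in fibroblasts given epidermal growth factor (EGF). It rests on 5 of the 16 deposited samples, namely 2 EGF+H89 libraries and 3 EGF libraries, chosen by their labels and not by any measured value. All were total RNA of serum-starved CCD-1070Sk cells, an established line derived from normal human skin fibroblasts. EGF+H89 cells were given 10 µM H89 for 30 min and then 30 ng/ml EGF, with a labelled time of 1 h, and EGF cells were given 30 ng/ml EGF for 1 h. Used beside them were H89 alone (10 µM, 30 min of pretreatment, labelled time 0 h, 3 libraries) and untreated control cells (time 0 h, 3 distinct libraries). TPA+H89 and TPA (100 nM of the phorbol ester TPA for 1 h with and without the same pretreatment, 2 libraries each) completed the design. The time spent in H89 may thus differ between H89 alone and EGF+H89. A single cell line was used, and no label states that a group's samples are separate cultures. The p-values therefore reflect the spread among these libraries alone, and that spread may be technical.

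EGF binds its receptor tyrosine kinase and starts the RAS, RAF, MEK and ERK cascade. ERK enters the nucleus, where with its downstream kinases it switches on immediate-early genes within minutes through factors such as SRF with ELK1, CREB and ATF1. Among these downstream kinases are MSK1 and MSK2, which phosphorylate CREB, ATF1 and histone H3. Many of the genes induced encode phosphatases and adaptors that in turn dampen ERK. H89 inhibits MSK1, MSK2 and protein kinase A, and it is known to act on other kinases as well, among them ROCK, p70 S6 kinase and RSK, so an effect of H89 cannot be assigned to a single kinase.

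Sample names run in sets of consecutive numbers, and the libraries of a set resembled each other. EGF+H89 replicate 1 and EGF replicate 2 are in set 2, EGF+H89 replicate 2 and EGF replicate 3 in set 3, and these 2 matched pairs are given below as the first and the second pair. EGF replicate 1 is in set 1, which has control replicate 1 but no EGF+H89 library. The total count was 24047897 and 39091712 in EGF+H89 and 41514691, 23422453 and 57270922 in EGF, within a range of 7527026 to 130075914 over the series. The first pair gave 24.8% of its counts in EGF+H89 and 26.6% in EGF to the rRNA genes RNR1 and RNR2, and the second pair gave 0% in each. EGF replicate 1 stood apart, with 0.0183% rRNA and 10.6% of its counts in small nucleolar and Cajal body RNAs, against 0.468% to 0.615% in the other 4 libraries. Summed fibroblast marker levels were 45074 and 58882 CPM (a gene's counts per 1000000 counts of the library) in EGF+H89 and 87414, 43424 and 64806 CPM in EGF. Markers of keratinocytes summed to 10.4 and 22.8 CPM in EGF+H89 and to 6.92 to 24.8 CPM in EGF, endothelial markers to at most 7.83 CPM and melanocyte markers to at most 8.09 CPM, and 0 members of these lists were at 0 in all 5 libraries. The leukocyte list was mostly CD68, which is also expressed by fibroblasts, at 44.1 and 70.4 CPM for the list in EGF+H89 against 13.4, 40.6 and 52.9 CPM in EGF.

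Among the genes of smallest p, DUSP5, PCF11, GBP1, RGS4 and CD274 were at lower levels in EGF+H89 than in EGF within both pairs, as were LINC01355, ZNF93, RTL1 and others. HMOX1, HES1, ID3 and GADD45B were at higher levels within both pairs. None of these differences passed the test over all genes. In bulk RNA, a lower level in each cell and fewer cells that express a gene cannot be told apart. EdgeR's quasi-likelihood test with a term per group and a block for the set, adjusted by Benjamini-Hochberg at 0.05, called 0 of 18575 genes (0%). At an unadjusted p under 0.05 were 341 genes (1.84%), of which 272 were lower (1.46%) and 69 higher (0.371%) in EGF+H89. As a proportion this is below 0.05, the share due if no gene differed, so the count does not by itself show a signal. The shares at this p for H89 against control and for the interaction, given below, were lower still. The lowest adjusted p was 0.161. DESeq2 on the same model called 15 genes, 14 lower and 1 higher. Among the 14 were GPR78 and SLC30A8, whose fitted log2 fold changes of -24.4 and -21.0 are too extreme to be read as effect sizes. With only the 8 libraries of sets 2 and 3 in edgeR's fit, DUSP5, PCF11 and GBP1 were called lower (adjusted p = 0.0226 each). Leaving out 1 library at a time gave 0 calls except without EGF replicate 2, which gave the rRNA genes RNR1 and RNR2, and without EGF replicate 3, which gave MTRNR2L2, each of which leaves an EGF+H89 library with no EGF partner in its set. Differences that recurred were therefore also counted without a test. Among 13555 genes with a mean of at least 1 CPM, 180 were more than 1.5-fold lower in EGF+H89 in both pairs (1.33%), 52 were more than 1.5-fold higher in both (0.384%), and 58 were past 1.5-fold in opposite directions (0.428%). The same count for H89 against control in sets 2 and 3 gave 97 lower (0.716%), 44 higher (0.325%) and 167 opposite (1.23%). The control used in set 3 has the same counts as the control labelled for set 5, so differences from it in set 3 hold only if these counts belong there. Among the same 13555 genes, 8.73% had both EGF+H89 libraries below all 3 EGF libraries and 8.9% had both above, the background for each statement below that groups did not overlap.

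**Figure D1:**
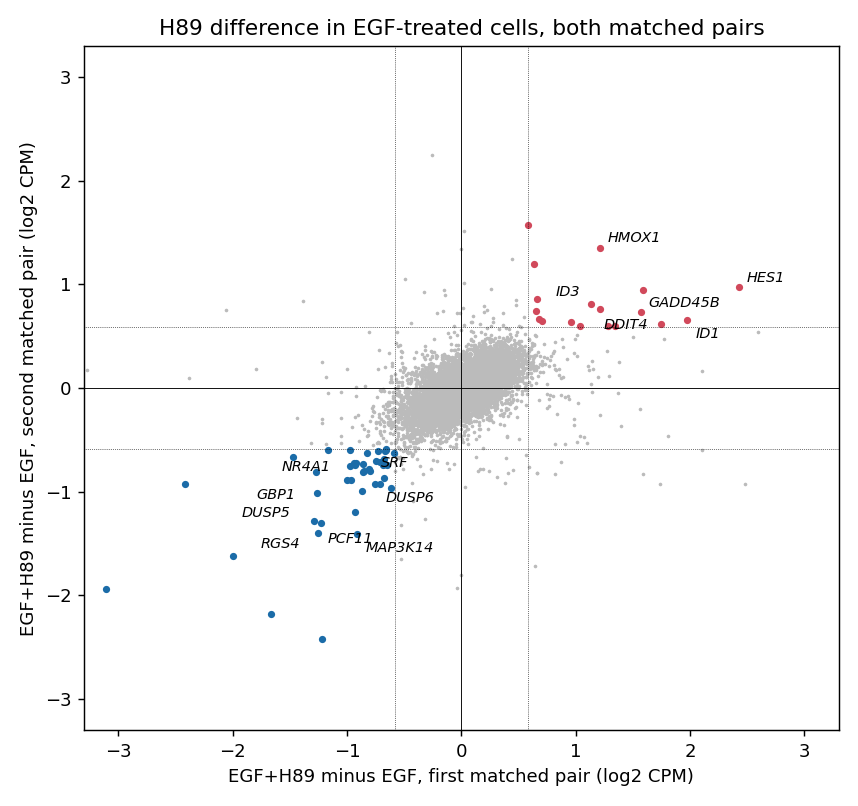
Difference in log2 CPM between EGF+H89 and EGF in the first matched pair (horizontal axis) and in the second (vertical axis), 1 point per gene of at least 10 CPM on average. Dotted lines mark 1.5-fold, blue points are lower and red points higher past it in both pairs, and DUSP5, PCF11, RGS4 and HMOX1 lie near the diagonal.

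Across the 9248 genes with a mean of at least 10 CPM, the EGF+H89 minus EGF differences of the first and the second pair correlated with r = 0.524 (rho = 0.591), the H89 minus control differences of the same sets with r = -0.0676 (rho = -0.0241), and the EGF minus control differences with r = 0.256 (rho = -0.0522). These are descriptions across genes, which are not independent replicates, and the libraries of a pair share their set. In the plot of the differences of both pairs, most genes lay within 1.5-fold of no difference.

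DUSP5, the phosphatase that dephosphorylates and holds ERK in the nucleus, was at 42.3 and 39.9 CPM in EGF+H89, against 75.7, 104 and 97.2 CPM in EGF. Both EGF+H89 libraries were below all 3 EGF libraries. The level was 2.44-fold lower in the first pair and 2.43-fold lower in the second, and the fitted log2 fold change was -1.31 ± 0.23 (SE; adjusted p = 0.161 by edgeR's quasi-likelihood test). Controls held 11.5, 13.9 and 19.5 CPM, so that DUSP5 in EGF+H89 stayed above every control library, by 1.60 and 1.03 on the log2 scale within sets 2 and 3. EGF against control itself gave 2.64 ± 0.20 for DUSP5, 1 of 99 genes called in that comparison by edgeR (0.533%), of which 97 were higher (0.522%) and 2 lower (0.0108%).

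PCF11, a subunit of the complex that cleaves the 3' ends of pre-mRNAs and ends transcription, was at 28.6 and 24.8 CPM in EGF+H89, against 59.1, 67.2 and 61.2 CPM in EGF. The groups did not overlap, and the levels in EGF+H89 were also below the 41.1, 37.6 and 48.6 CPM of the controls. The fitted log2 fold change was -1.26 ± 0.22 (SE; adjusted p = 0.161).

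GBP1, an interferon-inducible GTPase, was at 62.4 and 64.3 CPM in EGF+H89, against 62.4, 149 and 129.9 CPM in EGF. EGF+H89 was lower than EGF in both pairs, by 2.39-fold and 2.02-fold, but overlapped with EGF replicate 1, whose own control was at 23.8 CPM. The fitted log2 fold change was -1.15 ± 0.21 (SE; adjusted p = 0.161). Levels in EGF+H89 were close to those of controls 2 and 3, with differences of 0.03 and 0.25 on the log2 scale, while EGF replicates 1 to 3 exceeded their own controls by 1.39, 1.29 and 1.26. GBP1 has close paralogues, and how reads shared between them were counted is not given in the sources used here.

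**Figure D2:**
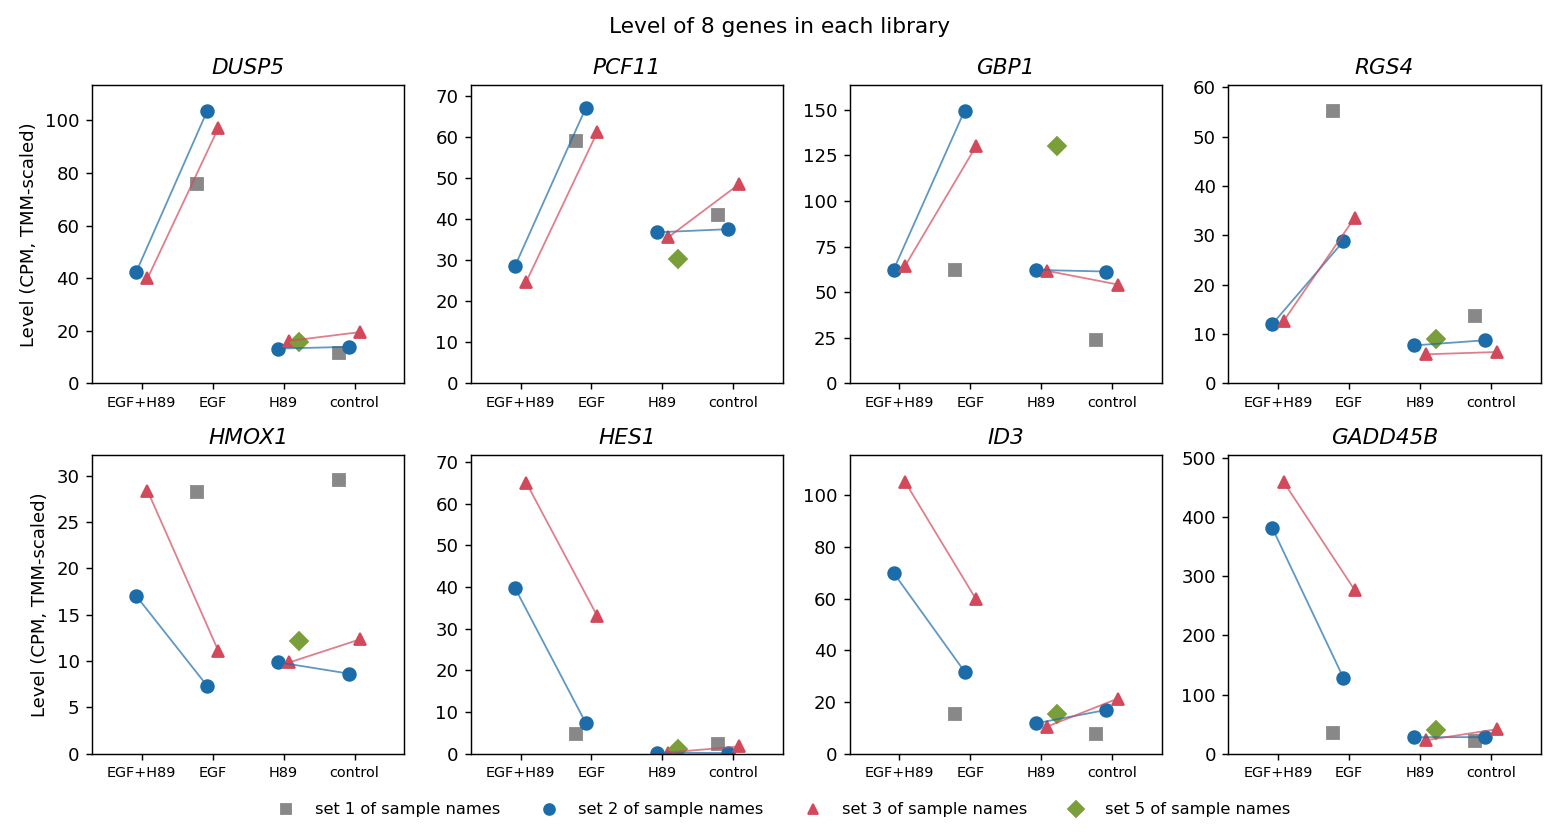
Level of 8 genes (CPM after TMM scaling, linear axis from 0) in each EGF+H89, EGF, H89 and control library, with marker shape and colour for the set of sample names and lines joining libraries of a set. DUSP5, PCF11, GBP1 and RGS4 are lower, and HMOX1, HES1, ID3 and GADD45B higher, in EGF+H89 than in EGF within both pairs, while EGF replicate 1 (grey square) departs from the other EGF libraries in several genes.

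RGS4, a GTPase-activating protein that shortens G-protein signals, was at 12.1 and 12.7 CPM in EGF+H89, against 55.2, 28.8 and 33.6 CPM in EGF. The groups did not overlap, and the fitted log2 fold change was -1.33 ± 0.28 (SE; adjusted p = 0.333). CD274, which encodes the immune checkpoint ligand PD-L1, was at 3.12 and 2.95 CPM in EGF+H89, against 6.56, 8.87 and 7.33 CPM in EGF. Its EGF+H89 levels lay among the control levels of 1.46 to 3.21 CPM. RTL1, an imprinted gene derived from a retrotransposon, was at 2.49 and 4.84 CPM in EGF+H89, against 18.8, 10.1 and 14.9 CPM in EGF. Transcripts run antisense to RTL1, and whether strand was used in counting is not given in the sources used here.

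The other genes among the 12 lower ones of smallest p were expressed weakly. ZNF93, a zinc finger repressor known to bind LINE-1 elements, was at 0.769 and 1.41 CPM in EGF+H89, against 2.74, 4.67 and 4.93 CPM in EGF. LINC01355, a long noncoding RNA, was at 0.0904 and 0.462 CPM in EGF+H89, against 0.736, 3.6 and 2.72 CPM in EGF. ZNF594, C9orf131 and LINC00312 were also lower in both pairs, at no more than 7.66 CPM in any of the 5 libraries. The fitted value of -6.11 for the nucleolar RNA SNORD116-29 came from 1 library, with 0 CPM in both EGF+H89 libraries against 99.8, 0.327 and 0.122 CPM in EGF replicates 1, 2 and 3.

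Promoters of 4 genes lower in both pairs are shown as examples that hold letters of the elements through which CREB and SRF act, both reached by ERK signalling. Each is the 250 bases before the annotated start from RefSeq on GRCh38.p14, read 5′ to 3′ on the gene's strand, and the 4 were picked after their values were seen. Capitals mark the cAMP response element (CRE) TGACGTCA, its shorter core TGACG on either strand, and the CArG box bound by SRF. DUSP1 lies on the minus strand at chr5:172771196-172771445, SRF on the plus strand at chr6:43171019-43171268, GBP1 on the minus strand at chr1:89065209-89065458 and PCF11 on the plus strand at chr11:83156881-83157130.
DUSP1: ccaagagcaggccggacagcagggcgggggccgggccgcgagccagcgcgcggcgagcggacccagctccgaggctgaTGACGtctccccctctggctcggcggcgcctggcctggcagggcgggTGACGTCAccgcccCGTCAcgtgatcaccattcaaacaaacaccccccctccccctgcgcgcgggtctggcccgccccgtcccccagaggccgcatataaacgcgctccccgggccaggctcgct
SRF: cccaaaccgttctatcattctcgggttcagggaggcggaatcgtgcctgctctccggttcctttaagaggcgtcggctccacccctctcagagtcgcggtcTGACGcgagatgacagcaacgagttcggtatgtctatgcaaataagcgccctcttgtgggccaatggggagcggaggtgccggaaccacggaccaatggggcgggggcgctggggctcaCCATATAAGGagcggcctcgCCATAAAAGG
GBP1: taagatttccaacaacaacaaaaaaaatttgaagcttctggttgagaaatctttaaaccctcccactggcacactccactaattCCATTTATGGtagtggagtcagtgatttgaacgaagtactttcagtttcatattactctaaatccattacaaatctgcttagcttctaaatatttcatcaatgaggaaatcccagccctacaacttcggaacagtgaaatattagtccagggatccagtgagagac
PCF11: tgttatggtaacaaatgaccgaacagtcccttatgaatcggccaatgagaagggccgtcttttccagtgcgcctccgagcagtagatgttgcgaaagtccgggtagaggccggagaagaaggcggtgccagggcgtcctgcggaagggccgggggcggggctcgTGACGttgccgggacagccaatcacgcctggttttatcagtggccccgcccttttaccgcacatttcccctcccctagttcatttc
The full CRE of DUSP1 begins 125 bases before the start and overlaps 2 of its 4 cores. The CArG boxes of SRF begin 30 and 10 bases before the start, that of GBP1 begins 166 bases before it, and the core of PCF11 begins 86 bases before it. Over 27305 promoters, searched on both strands, 1.98% held the CRE, 25% the core and 1.29% a CArG box. That search ran from 250 bases before to 50 bases after the start, a longer stretch than the sequences shown. The AP-1 element TGANTCA (7.76%) and the STAT element TTCNNNGAA (7.88%) were searched as well and had no match in these 4. Of all 11 promoters searched, the core was also in those of HES1 and ID3, both at higher levels with H89, 220 and 150 bases before the start, and the STAT element was in those of ID3 and CD274. For each gene a single annotated start was searched, so promoters at any other start were not covered. The promoters of RGS4, DUSP6, NR4A1 and CD274, all lower in both pairs, held no CRE, core or CArG box. Neither did that of ID1, which was higher in both pairs. The core was thus found in promoters of lower and of higher genes, and was absent from others of each. A match of letters is a description of the sequence and does not show binding.

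The genes higher in EGF+H89 were led by HMOX1, which encodes the haem-degrading enzyme haem oxygenase 1. It was at 17 and 28.4 CPM in EGF+H89, against 28.2, 7.33 and 11.1 CPM in EGF. It was higher in both pairs, by 2.32-fold and 2.56-fold, but EGF replicate 1 and its control, at 29.6 CPM, were about as high as the higher EGF+H89 library. The fitted log2 fold change was 1.27 ± 0.23 (SE; adjusted p = 0.161).

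HES1, a transcriptional repressor downstream of Notch and of growth factors, was at 39.8 and 65.0 CPM in EGF+H89, against 4.71, 7.33 and 33.1 CPM in EGF. The groups did not overlap, although the difference was 5.40-fold in the first pair and 1.96-fold in the second. ID3, which blocks basic helix-loop-helix factors from binding DNA, was at 69.9 and 105 CPM in EGF+H89, against 15.2, 31.8 and 59.8 CPM in EGF. GADD45B, a stress-response adaptor, was at 381 and 459.5 CPM in EGF+H89, against 35.5, 128 and 277 CPM in EGF. All 3 were highest in both EGF+H89 libraries and lowest, among EGF libraries, in EGF replicate 1.

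INSIG1, TGIF1, DDIT4, BMF, DLX2 and SNORD15A were also among the 12 higher genes of smallest p. INSIG1, which retains the SREBP activator in the endoplasmic reticulum, was at 137 and 122 CPM in EGF+H89, against 77.9, 87.1 and 73.0 CPM in EGF. TGIF1, a corepressor of SMAD factors, was at 129 and 159 CPM in EGF+H89, against 88.7, 80.8 and 100.2 CPM in EGF. Neither overlapped between the groups. DDIT4, an inhibitor of mTORC1 that starved cells express, was at 46.6 and 78.8 CPM in EGF+H89, against 96.1, 20.1 and 46.4 CPM in EGF. It was higher in both pairs but overlapped over the 5 libraries, as did the BH3-only gene BMF. The homeobox gene DLX2 was at 4.43 and 5.12 CPM in EGF+H89, against 1.83, 1.40 and 3.50 CPM in EGF. The nucleolar RNA SNORD15A had a fitted value of 1.19 ± 0.37 but was at 8.82 and 4.22 CPM in EGF+H89 and at 296, 2.89 and 2.17 CPM in EGF, and its direction turned round without the block for sets (-3.95).

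Feedback inhibitors of ERK and growth factor receptors tended to be lower with H89. Of the 18 on the list, 0 were called, 5 were lower and 2 higher at an unadjusted p under 0.05, and 6 were more than 1.5-fold lower in both pairs, against 1 higher. Over all tested genes, 1.46% were lower and 0.371% higher at that p. Past 1.5-fold in both pairs were 1.33% lower and 0.384% higher of the genes with at least 1 CPM. By sign, 11 of the 18 were lower in both pairs and 5 higher (35.8% and 28.9% of all genes). The list's median log2 fold change was -0.17, against -0.02 over all tested genes, and lay between -0.24 and -0.12 when 1 library was left out. The list was chosen with earlier results of these data known, and nothing particular to it was tested. DUSP1, the nuclear phosphatase of p38, JNK and ERK, was at 293 and 263 CPM in EGF+H89, against 495, 530.1 and 436 CPM in EGF. DUSP6, the cytoplasmic ERK phosphatase, was at 70.3 and 62.0 CPM in EGF+H89, against 56.7, 119 and 118 CPM in EGF. ERRFI1, which binds and inhibits the EGF receptor, was at 56.0 and 47.8 CPM in EGF+H89, against 85.6, 89.4 and 87.3 CPM in EGF. DUSP1 and ERRFI1 did not overlap between the groups, while DUSP6 overlapped through EGF replicate 1. PHLDA1 and SPRED3 made up the 6, and are named after their values were seen. In contrast, the single member past 1.5-fold higher in both pairs was IER3, an anti-apoptotic early gene, at 525 and 553 CPM in EGF+H89, against 83.4, 269 and 357 CPM in EGF. The Sprouty gene SPRY2, an inhibitor of receptor signalling to RAS, was at 33.2 and 39.6 CPM in EGF+H89 and at 36.6, 29.8 and 38.6 CPM in EGF.

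**Figure D3:**
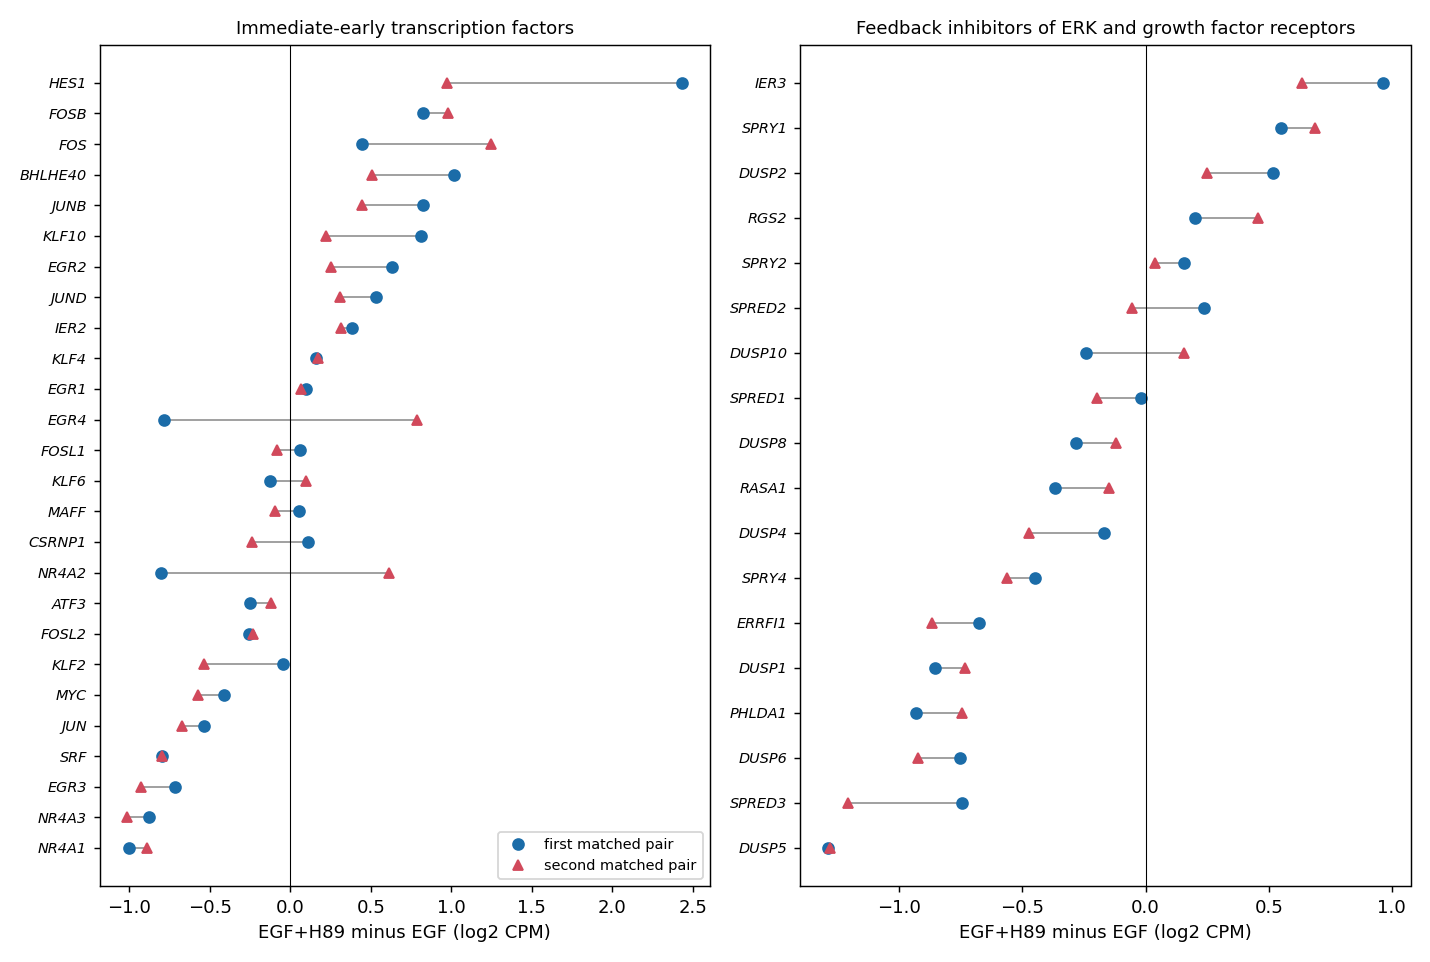
Difference in log2 CPM between EGF+H89 and EGF for each immediate-early transcription factor (left) and each feedback inhibitor (right), in the first matched pair (circles) and in the second (triangles), ordered by the mean of both. DUSP5, DUSP6, DUSP1, PHLDA1, ERRFI1 and SPRED3 lie below zero in both pairs, and the transcription factors range between NR4A1 at -1.0 and -0.89 and HES1 at 2.43 and 0.97.

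Immediate-early transcription factors differed in both directions. Of 26 tested, 0 were called. At an unadjusted p under 0.05, 6 were higher and 3 lower (0.371% and 1.46% of all tested genes). Their median log2 fold change was 0.24, which leaving out 1 library at a time moved between -0.01 and 0.35. EGR3, NR4A1, NR4A3 and SRF were more than 1.5-fold lower in both pairs, and FOSB and HES1 more than 1.5-fold higher. Among all genes with at least 1 CPM, these shares were 1.33% and 0.384%. FOS, the AP-1 subunit often used to follow MSK and histone H3 phosphorylation, was at 237 and 214 CPM in EGF+H89, against 230.0, 174 and 90.3 CPM in EGF. EGR1, a zinc finger factor induced through SRF, was at 231 and 282 CPM in EGF+H89, against 68.7, 215 and 268 CPM in EGF. Neither was lower with H89 in either pair. JUNB, the AP-1 subunit that often opposes JUN, was at 755 and 876 CPM in EGF+H89, against 252, 426 and 643 CPM in EGF, while JUN was at 213 and 211 CPM in EGF+H89, against 503, 308 and 336 CPM in EGF. These members of the same family thus lay on opposite sides, and neither overlapped between the groups. EGR2 was at 243 and 239.9 CPM in EGF+H89, against 43.0, 157 and 201 CPM in EGF. EGR3 was at 49.0 and 49.3 CPM in EGF+H89, against 17.1, 80.4 and 93.7 CPM in EGF.

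NR4A1 and NR4A3, orphan receptors and classical targets of CREB, were lower with H89 in both pairs. NR4A1 was at 37.8 and 38.3 CPM in EGF+H89, against 87.2, 75.8 and 71.0 CPM in EGF, with no overlap and a fitted log2 fold change of -0.80 ± 0.37 (SE; adjusted p = 1), which lay between -0.99 and -0.32 when 1 library was left out. Both EGF+H89 libraries remained above the control levels of 12.9, 2.04 and 8.91 CPM. NR4A3 was at 5.83 and 5.03 CPM in EGF+H89, against 5.44, 10.7 and 10.2 CPM in EGF. NR4A2 stayed at or under 1.21 CPM in these 5 libraries. SRF itself was at 58.6 and 65.9 CPM in EGF+H89, against 87.2, 102 and 115 CPM in EGF, lower in both pairs by 1.74-fold. SRF thus did not overlap between the groups. MYC, the proliferation factor, was at 51.6 and 47.8 CPM in EGF+H89, against 113, 68.5 and 71.1 CPM in EGF. BHLHE40, a repressor linked to the circadian clock, was at 207 and 257 CPM in EGF+H89, against 29.6, 102 and 180.4 CPM in EGF. The stress-responsive factor ATF3 was at 43.2 and 40.8 CPM in EGF+H89, against 96.5, 51.3 and 44.3 CPM in EGF. MYC and ATF3 were lower and BHLHE40 higher in both EGF+H89 libraries than in any EGF library. Among AP-1 subunits FOSB was at 7.64 and 15.2 CPM in EGF+H89, against 8.54, 4.30 and 7.69 CPM in EGF.

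Genes long used to study MSK and phosphorylated histone H3, which overlap with the list above, also lay on both sides. Of 12 tested, 3 were higher and 2 lower at an unadjusted p under 0.05 (0.371% and 1.46% of all tested genes). In both pairs, 2 were more than 1.5-fold lower and 1 higher (1.33% and 0.384% of genes with at least 1 CPM). The median was -0.02, or between -0.32 and 0.28 when 1 library was left out. The 15 tested cAMP and CREB targets had 1 higher and 3 lower at that p, with a median of -0.07, or between -0.17 and -0.019 when 1 library was left out. The 3 more than 1.5-fold lower in both pairs were DUSP1, NR4A1 and NR4A3, and the 1 more than 1.5-fold higher was FOSB. By sign, 6 of the 15 were lower in both pairs and 3 higher (35.8% and 28.9% of all genes). The 19 cytoskeletal targets of SRF and MRTF had 0 at that p in either direction, and 13 were lower in both pairs by sign against 1 higher, beside 35.8% lower and 28.9% higher of all 18575 genes. Their median was -0.15, or between -0.18 and -0.0052 when 1 library was left out. Among them CYR61, a matricellular protein, was at 373 and 373 CPM in EGF+H89, against 495, 526 and 477 CPM in EGF.

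Secreted factors and NF-kappaB targets were described in the same way. Of 20 secreted cytokines and growth factors tested, 3 were more than 1.5-fold higher in both pairs and 0 lower. Among all genes with at least 1 CPM, these shares were 0.384% and 1.33%. At an unadjusted p under 0.05, 1 of the 20 was higher and 1 lower (0.371% and 1.46% of all tested genes). The median was 0.20, or between 0.0085 and 0.24 when 1 library was left out, and the median difference was 0.17 in the first pair and -0.012 in the second. The 3 were the chemokines CXCL1, CXCL3 and CXCL8. CXCL3, a neutrophil-attracting chemokine, was at 2.76 and 2.20 CPM in EGF+H89, against 0.223, 1.17 and 0.775 CPM in EGF. The EGF receptor ligand EREG was at 28.0 and 22.6 CPM in EGF+H89, against 3.72, 41.8 and 39.4 CPM in EGF, and HBEGF at 8.68 and 10.4 CPM in EGF+H89, against 5.33, 6.30 and 11.5 CPM in EGF. LIF was at 79.3 and 84.8 CPM in EGF+H89, against 23.1, 62.9 and 79.0 CPM in EGF. Of 18 NF-kappaB targets, 2 were higher and 0 lower at an unadjusted p under 0.05, 11 were higher and 3 lower in both pairs by sign (28.9% and 35.8% of all genes), and the median was 0.35. NFKBIA, the inhibitor that ends NF-kappaB signalling, was at 210.0 and 203 CPM in EGF+H89, against 59.3, 150.3 and 117 CPM in EGF. ZC3H12A, a ribonuclease that degrades cytokine mRNAs, was at 89 and 90.2 CPM in EGF+H89, against 20.1, 58.9 and 70.3 CPM in EGF. Leaving out 1 library at a time moved the median of this list between 0.10 and 0.78.

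The other lists had at most 1 member in each direction at an unadjusted p under 0.05, apart from the melanocyte markers. FOXO and growth-arrest genes, which growth factors repress, were higher in both pairs by sign for 13 of 20 and lower for 3, against 28.9% and 35.8% of all genes. Their median was 0.11, or between 0.067 and 0.20 when 1 library was left out, with 1 at an unadjusted p under 0.05. PIK3IP1, an inhibitor of PI3K, was at 62.8 and 67.9 CPM in EGF+H89, against 43.4, 44.3 and 44.7 CPM in EGF, with no overlap. Among 18 genes for matrix proteases or for enzymes making prostaglandins and hyaluronan, 0 were at an unadjusted p under 0.05, and PTGS2, the inducible cyclooxygenase, was at 379.7 and 299 CPM in EGF+H89, against 93.0, 404 and 264 CPM in EGF. Cholesterol and fatty acid synthesis genes, p53 targets, both the integrated stress and the unfolded protein response, mRNA decay factors, the EGF receptor and ERK pathway and S phase genes had medians between -0.16 and 0.07, and 0 to 1 members in each direction at that p. The kinases reported as H89 targets and their relatives had 0 of 17 members at that p, a median of 0.05 and 0 members past 1.5-fold in both pairs. The fibroblast matrix list had 0 of 20 members at that p and a median of -0.03. Of the markers of other cell types, MLANA and TYRP1 were lower at that p, both at under 1 CPM in each library. The marker lists had 4 to 6 tested members and medians of -0.50 for melanocytes, 0.29 for keratinocytes, 0.25 for endothelium and 0.25 for leukocytes.

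Genes past 1.5-fold in both pairs were also counted by RNA class. Past 1.5-fold lower in both pairs were 22 of 433 long noncoding RNAs (5.08%), 18 of 287 small noncoding RNAs (6.27%) and 116 of 12092 protein coding genes (0.959%), and past 1.5-fold higher in both were 0.924%, 3.14% and 0.256%. The same count for H89 against control in sets 2 and 3 gave 18, 7 and 51 lower and 1, 9 and 29 higher. Long noncoding RNAs were thus mostly on the lower side without EGF as well. The rule of at least 1 CPM took in EGF replicate 1, so some small RNAs near zero in both pairs were counted. SNORD59A, counted as lower, was at 0.136 and 0.022 CPM in EGF+H89, against 58.0, 0.374 and 0.304 CPM in EGF. The shares of small noncoding RNAs are therefore not read as an effect on the class. KCNQ1OT1, the antisense transcript of an imprinted domain, was at 28.4 and 27.2 CPM in EGF+H89, against 33.1, 56.0 and 45.6 CPM in EGF. Among 498 genes with zinc finger symbols (ZNF, ZSCAN, ZKSCAN), most of which encode repressors, 16 were more than 1.5-fold lower in both pairs (3.21%) and 0 higher. ZNF281 was at 64.4 and 57.9 CPM in EGF+H89, against 92.8, 107 and 88.1 CPM in EGF. By sign, 306 of the 498 (61.4%) were lower in both pairs, against 34.3% of the 13555 genes. Their median differences were -0.23 and -0.14 on the log2 scale in the 2 pairs, and those of H89 minus control in the same sets were 0.01 and -0.12. The classes and these genes were picked after the values were seen, and the difference between classes was not tested.

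Without EGF, H89 gave smaller differences within sets 2 and 3 for DUSP5, GBP1, RGS4 and HMOX1, and opposite ones for DDIT4 and ID3. H89 against control called 0 genes (0%) by edgeR and 2 by DESeq2. Unadjusted p-values under 0.05 were found for 252 genes (1.36%), 211 lower (1.14%) and 41 higher (0.221%) in H89. DUSP5 was at 13.3, 16.2 and 15.8 CPM in H89, against 11.5, 13.9 and 19.5 CPM in control. GBP1 was at 62.2, 61.7 and 130.2 CPM in H89, against 23.8, 61.3 and 54.2 CPM in control, and RGS4 at 7.71, 5.91 and 9.02 CPM in H89, against 13.7, 8.76 and 6.37 CPM in control. PCF11 was at 36.8, 35.6 and 30.3 CPM in H89, against 41.1, 37.6 and 48.6 CPM in control. Replicate 3 of H89, which has no distinct control of its own set, held 239 CPM of INSIG1 and 983 CPM of the fatty acid desaturase SCD, against at most 59.4 and 185 CPM in the other H89 and control libraries.

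The difference between the H89 effect with EGF and without it was tested as an interaction, which called 0 genes (0%) by edgeR and 5 by DESeq2. Unadjusted p-values under 0.05 were found for 157 genes (0.845%), 82 with a lower H89 effect in EGF (0.441%) and 75 with a higher one (0.404%). The smallest p belonged to DDIT4, whose H89 difference was 0.92 ± 0.31 with EGF and -1.26 ± 0.32 without it (interaction 2.18 ± 0.42, SE; adjusted p = 0.861). DDIT4 was at 34.0, 30.3 and 106 CPM in H89, against 224, 83.1 and 72.1 CPM in control. For ID3 the H89 difference was 1.00 ± 0.27 with EGF and -0.80 ± 0.28 without it (interaction 1.80 ± 0.37, SE; adjusted p = 0.861). For HES1 the interaction was 4.88 ± 0.99, but HES1 stood at 0.235 to 1.03 CPM in H89 and at 0.12 to 2.19 CPM in control. For GBP1 it was -1.28 ± 0.28 and for HMOX1 1.31 ± 0.31 (SE; adjusted p = 1 for each).

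**Figure D4:**
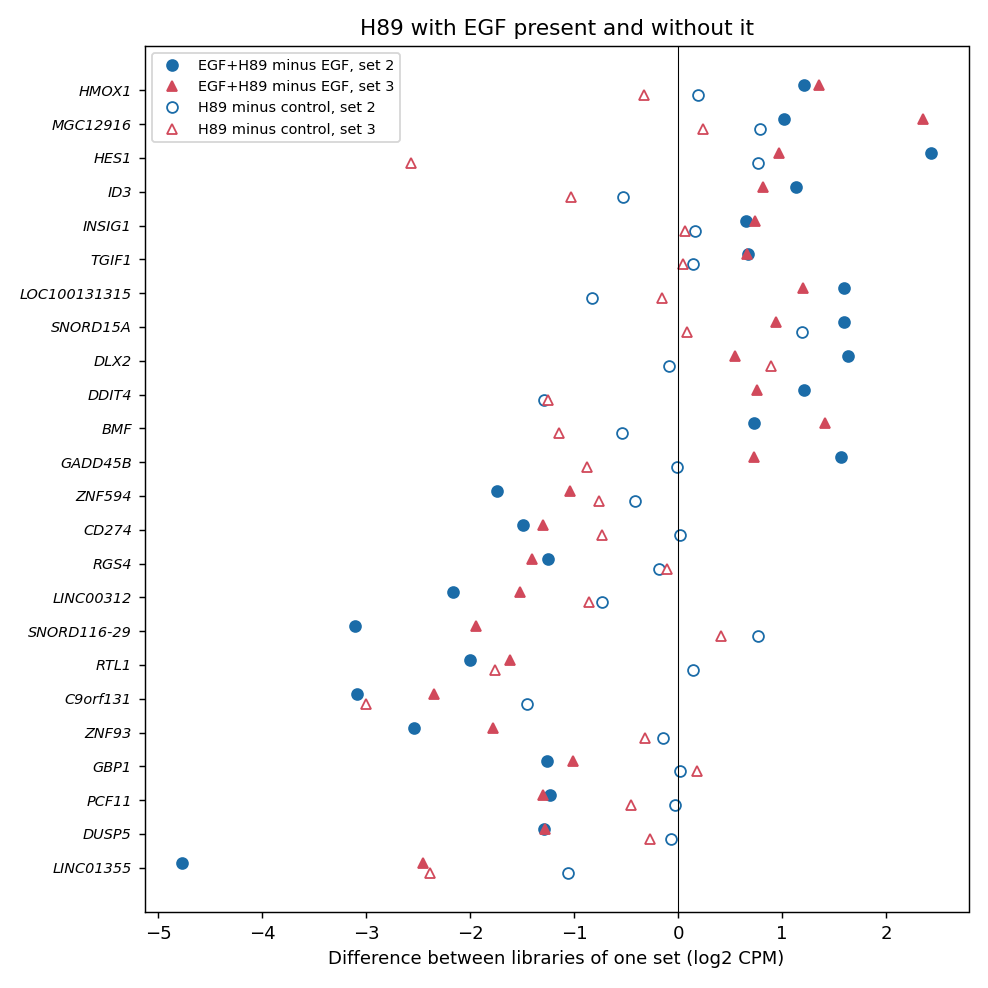
Difference in log2 CPM between libraries of a set for the 12 higher and 12 lower genes of smallest p, with filled symbols for EGF+H89 minus EGF and open symbols for H89 minus control, circles for set 2 and triangles for set 3. For DUSP5, GBP1, RGS4, HMOX1, INSIG1 and TGIF1 no open symbol is farther from zero than the -0.33 of HMOX1 while both filled symbols are past 1.5-fold, and for DDIT4 and ID3 they lie on opposite sides of zero.

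The H89 difference in EGF-treated cells was also set against that in TPA-treated cells, where protein kinase C is activated directly. EdgeR called 69 genes for this difference (0.371%), 17 of them higher (0.0915%) and 52 lower (0.28%) with EGF than with TPA. Of the 52, 44 were small noncoding RNAs, and all 17 were protein coding. ID3 was at 69.9 and 105 CPM in EGF+H89, against 15.2, 31.8 and 59.8 CPM in EGF, and at 40.3 and 174 CPM in TPA+H89, against 89.8 and 776 CPM in TPA, a difference of 2.67 ± 0.40 (SE; adjusted p = 0.0202). NFKBIA differed by 1.79 ± 0.36 and INSIG1 by 1.54 ± 0.31 (SE; adjusted p = 0.0414 and 0.0427), both higher in EGF+H89 than in EGF and lower in TPA+H89 than in TPA in every matched pair. DUSP5 and PCF11 were lower with H89 after both mitogens. DUSP5 was at 39.2 and 75.4 CPM in TPA+H89, against 159.8 and 234 CPM in TPA, and PCF11 at 35.9 and 29.2 CPM in TPA+H89, against 73.8 and 56.7 CPM in TPA. The differences between the mitogens were 0.52 for DUSP5 (adjusted p = 0.565) and -0.26 for PCF11 (adjusted p = 0.802), which does not show that the effects are alike. GBP1 was at 84.0 and 67.4 CPM in TPA+H89, against 103 and 68.8 CPM in TPA. The 69 calls depended on the libraries and the setting. They numbered 0 without the block for sets and 0 without any 1 of control replicates 1, 2 and 3 and EGF replicates 1 and 3. They numbered 38 without EGF+H89 replicate 1, 34 without TPA replicate 2, 35 without TPA+H89 replicate 2, 2862 without TPA replicate 1 and 2851 without TPA+H89 replicate 1. The share of counts in small nucleolar and Cajal body RNAs was 2.57% in TPA+H89 replicate 1 and 0.452% in its TPA partner, and that of the structural RNA RMRP was 13.4% and 2.72%. The part of these shares in the result was not tested.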

How the data were processed

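Strand-specific libraries were built from total RNA after removal of ribosomal RNA, per the labels' protocols, which name 3 platforms without tying them to samples. The deposited table gives raw read counts for 28374 gene symbols, and all columns were assigned to samples (0 left over). Per the submitters' processing notes, HOMER and the builds hg19 and GRCh37 were used. The sources used here do not give the aligner, the annotation or the strand setting.

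Control replicate 4 equalled control replicate 3 at every gene, so they differed by less than sampling noise and were counted as 1 sample, in set 3, although the counts could belong to set 5 instead. Sets of consecutive sample names pair the libraries: within groups, deviations from the group means correlated by 0.735 to 0.918 between libraries of the same set and by -0.918 to -0.735 between sets. Only sets 2 and 3 entered this check, so the deviations of a group's 2 libraries mirror each other.

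The tests used edgeR 4.0.16 under R 4.3.3. The filterByExpr function with a smallest count of 10 left 18575 genes, and scaling used the trimmed mean of M values (TMM). The 15 distinct libraries were fitted in 1 quasi-likelihood model with a term per group and the set of names as a replicate block, with Benjamini-Hochberg adjustment across the 18575 genes and a threshold of 0.05. The SE of a log2 fold change was derived from the test. Levels are CPM with TMM scaling, except the marker sums, which were divided by the total count, and differences within sets are log2 CPM with a prior count of 2. RNA classes came from GENCODE release 29, matched by symbol for 17426 of the tested genes. The scripts were tested on simulated data.

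Named genes were 20 preset genes, the 12 higher and 12 lower ones of smallest p (0 being called) with the same sign in both pairs and a mean of at least 1 CPM, up to 4 per list in order of p, and the 6 of smallest p in the interaction and in the comparison with TPA. The members and 21 gene lists were chosen with earlier results of these data known. IL8 and SC5DL were matched under current symbols, and AREG, held as 2 split entries, was left out. Alternatives were no block, a block for technical batch, only the libraries of sets 2 and 3, DESeq2 1.42.0, its size factors, other filters, leaving out RNR1, RNR2 and RMRP, and leaving out each library. The technical batch was inferred from the counts, and no label gives it. It was set by whether genes at a count of 1 outnumbered those at 2, and by an rRNA share over 5%. Promoters of 11 of 13 genes asked for were matched in the RefSeq table.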

Additional observations from a re-analysis of the deposited data

Results flagged for a closer look

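The test of the H89 effect in EGF-treated against TPA-treated cells singled out 69 genes, for which the difference between the 2 effects itself passed. Those named by the rule or already described were SCARNA5 (-3.85), SNORA74B (-3.57), SNORA14B (-3.48), SNORA70 (-3.05), SNORA14A (-5.68), ZNF93 (-2.91), ID3 (2.67), BBC3 (1.92), NFKBIA (1.79) and INSIG1 (1.54), in log2 units of the EGF effect minus the TPA effect.

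The 5 small RNAs differed by -0.54 to 1.15 on the log2 scale between EGF+H89 and EGF within pairs, and by 2.10 to 5.24 between TPA+H89 and TPA. SCARNA5, which guides modification of spliceosomal RNA, was at 64.9 and 55.0 CPM in EGF+H89, against 191, 94.4 and 64.8 CPM in EGF, and at 394 and 43.5 CPM in TPA+H89, against 56.5 and 2.26 CPM in TPA. SNORA14A, at -5.68 the largest of those named, was at 0.543 and 0.154 CPM in EGF+H89, against 49.8, 0.280 and 0.137 CPM in EGF. It was at 5.10 and 0.141 CPM in TPA+H89, against 0.0929 and 0 CPM in TPA. Its mean reached 1 CPM only through EGF replicate 1, so -5.68 cannot be read as an effect size. TPA+H89 replicate 1 is the shallowest library of the series, at 7527026 counts. TPA replicate 2 is the deepest, at 130075914, with 0.0549% of its counts in small nucleolar and Cajal body RNAs. Their part in the result was not tested.

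BBC3, a BH3-only gene that promotes apoptosis, was at 37.8 and 43.5 CPM in EGF+H89, against 70.1, 20.4 and 32.9 CPM in EGF, and at 23.1 and 42.9 CPM in TPA+H89, against 40.4 and 155 CPM in TPA. ZNF93 was lower with H89 after EGF in both pairs, and was at 1.82 and 1.66 CPM in TPA+H89, against 1.12 and 0.868 CPM in TPA. No group had 4 distinct libraries, so single libraries within groups were not tested for outlying values.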

How the results depend on the processing

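With 2 EGF+H89 libraries, the spread within that group rests on 1 difference. For EGF+H89 against EGF the count of calls was 0 with no replicate block and with the technical batch inferred from the counts as the block. It was also 0 with size factors, with at least 10 counts in 50% of libraries and without RNR1, RNR2 and RMRP. It was 3 with the 8 libraries of sets 2 and 3, 15 with DESeq2, 29 without a filter and 0 to 2 when 1 library was left out. The 29 called without a filter lay on both sides. HES1, ID1, FOSB, GADD45B, FOS and ID3 were among the higher ones, and DUSP5, PCF11, GBP1 and RGS4 among the lower ones. Genes past 1.5-fold higher in both pairs numbered 81 without a filter and 44 to 60 when 1 library was left out, and lower ones 154 to 180.

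H89 against control gave 1 call with the 8 libraries, 2 with DESeq2, 11 without a filter and 0 to 3 when 1 library was left out. The interaction gave 5 with DESeq2, 14 without a filter and 0 to 2 when 1 library was left out. The comparison with TPA gave 0 with no replicate block, 0 with the batch as the block, 0 with the stricter filter, 314 with DESeq2, 714 without a filter and 0 to 2862 when 1 library was left out. Leaving out TPA and TPA+H89 libraries was chosen after seeing the data. EGF against control gave 5 with no replicate block, 41 with the batch, 216 with the 8 libraries, 158 with DESeq2, 205 without a filter, 59 with the stricter filter and 24 to 108 when 1 library was left out. The cause was not tested.

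As 0 genes were called for EGF+H89 against EGF, to keep a side of the threshold could only mean to stay uncalled. The settings also share most of their libraries, so the counts that follow are no independent check. Of 1765 values for 93 genes, 1710 kept their direction and their side of the threshold, 36 newly passed it and 19, in 14 genes, changed direction. With no replicate block these were SNORD15A (-3.95), FGF5 (0.026), CTGF (0.13), FDFT1 (-0.0082), ATF4 (-0.060), PSAT1 (-0.0065), BBC3 (-0.018), MDM2 (0.16), RPS6KA2 (-0.10) and TOP2A (0.051), and with the 8 libraries NR4A2 (-0.090). When 1 library was left out, FOSL1 ranged over -0.010 to 0.67, NR4A2 over -0.16 to 1.06, EGR3 over -0.88 to 0.093 and PTGS2 over -0.23 to 0.34. Of 399 list medians, 115 moved by more than the spread allowed.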

Other observations

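Among genes with at least 10 CPM that were past 1.5-fold in both pairs, some fell in no list. SLC20A1, a phosphate transporter, was at 67.9 and 74.4 CPM in EGF+H89, against 69.8, 124 and 148 CPM in EGF. MAP3K14, the kinase of the non-canonical NF-kappaB pathway, was at 10.9 and 11.3 CPM in EGF+H89, against 20.4, 20.6 and 30.1 CPM in EGF. PER2, a repressor of the circadian clock, was at 20.8 and 16.8 CPM in EGF+H89, against 15.5, 34.0 and 27.6 CPM in EGF. ID1, a relative of ID3, was at 116 and 178 CPM in EGF+H89, against 8.27, 29.4 and 113 CPM in EGF. MAP3K14 and ID1 did not overlap between the groups. None of these 4 passed the test over all genes, and all were picked after their values were seen.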
